A study of Mus musculus with 32 samples.

Results

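The crystallins described here are 10 genes in RNA-seq libraries of mouse RPE: the α-crystallins *Cryaa* and *Cryab*, the β-crystallins *Cryba1*, *Cryba2*, *Cryba4*, *Crybb1*, *Crybb2*, and *Crybb3*, and the γ-crystallins *Crygs* and *Crygn*. They were chosen by name, and all 10 were found among the 34453 rows of the count table. All 10 passed the filter on low counts in each of the 5 comparisons. The RPE came from both eyes of 16 mice labelled *rd1*, a strain that loses its rods through a mutation in *Pde6b*, with 7 mice at P20 and 9 at P40. In each mouse, AAV-Best1-Nrf2 with AAV-Best1-GFP was injected subretinally into one eye (the Nrf2 eye) and AAV-Best1-GFP without it into the other (the control eye), so that every eye carried the GFP vector and the subretinal injection. The Nrf2 transgene was the human gene under the human Best1 promoter, which confines it to the RPE. The 4 groups were thus 7 P20 control, 7 P20 Nrf2, 9 P40 control, and 9 P40 Nrf2 libraries. The Nrf2 eyes were compared with the control eyes of the same mice to find what Nrf2 changes in the RPE of a degenerating retina, and P40 was compared with P20 to follow the RPE over that time. The methods name fewer *rd1* pairs at each age than the labels do, and also name pairs of wild-type CD1 mice at P40, whereas all labels read *rd1*. Which P40 pairs, if any, were CD1 is not known. A difference of strain thus cannot be told apart from one of age here. The comparison of the eyes at P40, and that of the Nrf2 effect between the ages, could likewise mix strains.

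Crystallins are the main soluble proteins of the lens, where they are packed at high concentration to give a transparent, refractive tissue. The α-crystallins are also small heat shock proteins, chaperones that hold unfolding proteins in solution, and αB-crystallin, encoded by *Cryab*, is made in many tissues including heart, muscle, retina, and RPE. The β- and γ-crystallins share a fold of Greek key motifs, and *Cryba1*, which encodes βA3/A1-crystallin, has been studied in the RPE for its part in lysosomal clearance. *Crygs* encodes the γ-crystallin of the outer lens fibers, and *Crygn* encodes γN-crystallin, which lies between the β and γ families in structure. In the lens, transcription of crystallins is driven by Pax6, Prox1, and large Maf proteins, whose binding site shares letters with the antioxidant response element bound by Nrf2 and small Maf proteins.

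The 250 bases before the transcription start were available from RefSeq (GRCm38.p6) for 9 of the 10 genes, all but *Cryab*. The core of the antioxidant response element, TGACNNNGC on either strand, was found in 6 of these 9 (*Cryaa*, *Cryba1*, *Cryba2*, *Crybb1*, *Crygs*, and *Crygn*), and in 10.2% of 32851 promoters of the same length. The Maf half-site, TGCTGA, was found in 8 of the 9, all but *Crybb2*, and in 16.1% of all promoters. The TATA box, TATAAA, stood in 3 of the 9 (*Cryba1*, *Crybb1*, and *Crygs*) and in 12.4% of all promoters. Both forms of the heat shock element were rare, GAANNTTC with no member and 6.7% of all promoters, and TTCNNGAA with *Cryba1* alone and 7.2% of all promoters. Stretches of 130 bases that end just before the RefSeq start are shown for 4 genes. *Cryba1* and *Cryba2* hold the response element, *Crybb1* holds it and was the gene that passed the test with age, and *Crybb2*, with none of these motifs, is shown beside it since the ratio of the 2 genes differed between the ages. Capitals mark the response element, the Maf half-site, and the TATA box. In *Cryba1* and *Crybb1*, the half-site and the response element overlap and form 1 run of capitals.
*Cryba1*, chr11:77725294-77725423, minus strand: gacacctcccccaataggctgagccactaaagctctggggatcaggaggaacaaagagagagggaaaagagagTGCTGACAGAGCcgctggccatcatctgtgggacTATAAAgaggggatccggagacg
*Cryba2*, chr1:74893144-74893273, minus strand: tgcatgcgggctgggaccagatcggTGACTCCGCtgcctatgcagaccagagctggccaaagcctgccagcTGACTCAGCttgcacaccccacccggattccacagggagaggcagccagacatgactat
*Crybb1*, chr5:112255690-112255819, plus strand: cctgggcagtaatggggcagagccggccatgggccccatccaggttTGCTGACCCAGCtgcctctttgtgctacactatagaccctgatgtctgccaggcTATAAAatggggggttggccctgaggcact
*Crybb2*, chr5:113070118-113070247, minus strand: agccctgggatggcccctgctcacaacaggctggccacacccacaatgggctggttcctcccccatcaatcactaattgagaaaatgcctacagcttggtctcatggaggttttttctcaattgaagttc

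The libraries held 16548332 to 50542797 reads assigned to genes. RPE genes were abundant in each group, with *Rpe65*, the isomerase of the visual cycle, at a median of 1060 normalized counts (CPM, reads scaled to library size) in P20 control and 2200 CPM in P40 control eyes, and at 225 and 254 CPM in the Nrf2 eyes. The human transgene was at most 99.2 CPM in the P40 control eyes (median 0.383) and at least 3200 CPM in the P40 Nrf2 eyes. In the P20 control eyes its lowest, median, and highest levels were 0.924, 47.2, and 1100 CPM. Those in the P20 Nrf2 eyes were 1080, 5430, and 9510 CPM. The 1100 CPM were in the P20 library labelled control of mouse 3 and the 1080 CPM in that labelled Nrf2 of mouse 4. These 2 libraries were the most alike of all pairs, their counts differing by 7.68 times the variance of sampling noise against 41.9 times for the next pair. The calls of the main edgeR test that use P20 eyes are therefore also given without mice 3 and 4. So are the spread between eyes at P20 and the correlations of the crystallins with each other and with named lens markers. Calls by other methods, levels, shares, and the genes most like each crystallin are given over every library. Whether the eyes of one group came from separate sequencing runs could not be taken from the labels. The sample titles begin with M in every P20 library and with A in every P40 library, and what these letters stand for is not stated. Any difference that follows them cannot be told apart from one of age. In bulk RNA, fewer cells of a type and less RNA per cell cannot be told apart.

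Per kilobase of exon, *Cryab* had the highest median level of the 10 genes in every group, at 346 CPM per kb in P20 control, 441 in P20 Nrf2, 335 in P40 control, and 462 in P40 Nrf2 eyes. *Cryaa* came next in every group, with medians of 237, 311, 57.6, and 89.4 CPM per kb in the same order. The ranges of *Cryaa* and *Cryab* overlapped in each group but P40 control, where *Cryaa* reached 196 and *Cryab* began at 228 CPM per kb. *Crygn* was the lowest at P20, at 5.16 and 4.87 CPM per kb, and *Crybb3* was the lowest in P40 control eyes, at 4.49 CPM per kb. The lens crystallins *Crygs*, *Cryba1*, *Crybb1*, and *Crybb2* lay between 89.2 and 128 CPM per kb in P20 control eyes, with overlapping ranges.

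**Figure D1:**
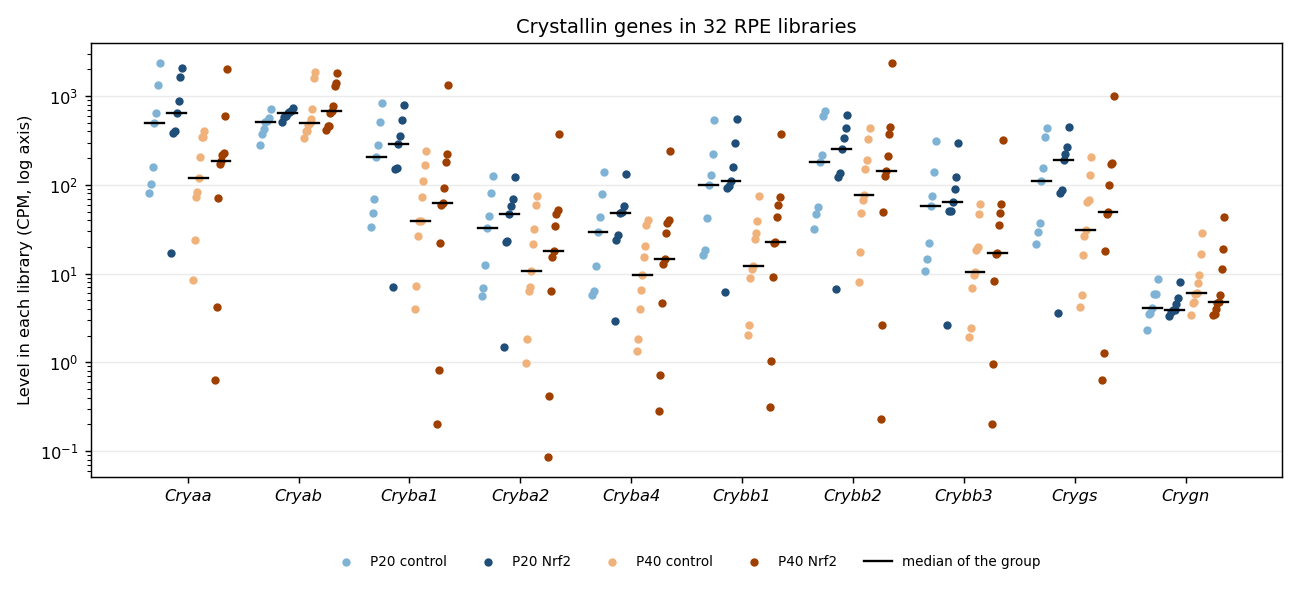
CPM of each crystallin gene (log axis) in the 32 libraries, 1 point per library, colored by group, with a bar at the group median. *Cryab* and *Crygn* have a highest over lowest library of 6.54-fold and 18.8-fold, whereas *Cryaa* ranges from 0.627 to 2350 CPM and *Crybb2* from 0.228 to 2360 CPM.

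The genes fell into 2 kinds by how they varied between eyes, a grouping made after their values were seen. *Cryaa*, *Cryba1*, *Cryba2*, *Cryba4*, *Crybb1*, *Crybb2*, *Crybb3*, and *Crygs* (the 8 lens crystallins below) had a highest library 20.6 to 33.8 times the lowest in P20 control, 45.6 to 124 times in P20 Nrf2, and 29.5 to 76.3 times in P40 control eyes. In P40 Nrf2 eyes the range was 846-fold (*Cryba4*) to 10300-fold (*Crybb2*). The ranges of *Cryab* in the 4 groups were 2.53-, 1.42-, 5.52-, and 4.45-fold, and those of *Crygn* were 3.74-, 2.42-, 8.46-, and 12.8-fold. *Cryaa* ranged over 80.2, 493, and 2350 CPM (lowest, median, and highest library) in P20 control eyes and over 16.9, 645, and 2100 CPM in P20 Nrf2 eyes. At P40, *Cryaa* ranged over 8.39, 120, and 408 CPM in control eyes and over 0.627, 186, and 2040 CPM in Nrf2 eyes, so that the groups overlapped over most of their range. *Cryab* ranged over 285, 512, and 720 CPM in P20 control and over 512, 653, and 729 CPM in P20 Nrf2 eyes. At P40, *Cryab* ranged over 337, 496, and 1860 CPM in control and 411, 683, and 1830 CPM in Nrf2 eyes. *Crygn* was low throughout, at medians of 4.14, 3.9, 6.1, and 4.77 CPM in P20 control, P20 Nrf2, P40 control, and P40 Nrf2 eyes, with a highest library of 43.9 CPM. The exons of *Cryab* (chr9:50751325-50756636) overlap those of *Hspb2*, and those of *Cryaa* (chr17:31677807-31681733) overlap an antisense gene. The strandedness of the counting was not stated in the sources used here, so reads of such partners cannot be separated.

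Within a group, the SD of log2 CPM of the 8 lens crystallins lay between 1.69 and 4.01, and each stood between percentiles 92.8 and 99.9 of the SDs of 17959 genes. The 8 were set apart by this spread, so their percentiles describe that grouping and are not a separate result. The median SD over these genes was 0.41 in P20 control, 0.45 in P20 Nrf2, 0.69 in P40 control, and 0.72 in P40 Nrf2 eyes. *Cryab* had an SD of 0.44, 0.17, 0.88, and 0.78 in the same order, at percentiles of 52.9, 10.1, 67.4, and 55.3. *Crygn* had an SD of 0.62, 0.43, 0.96, and 1.27, at percentiles of 66.9, 48.1, 73.6, and 81.2. The SDs of the 8 lens crystallins without P20 mice 3 and 4 were 1.46 to 1.67 in P20 control eyes (percentiles 93.0 to 95.1) and 1.71 to 2.54 in P20 Nrf2 eyes (90.9 to 98.0). The widest spread was that of *Crybb2* in P40 Nrf2 eyes, with 0.228, 143, and 2360 CPM and only 8 reads in its lowest library.

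The 8 lens crystallins stood high or low in the same eyes. The control eye of P20 mouse 3, the Nrf2 eye of P20 mouse 4, and the Nrf2 eye of P40 mouse 8 held the highest 3 places of the 32 libraries for each of the 8 genes. The 2 from P20 were the libraries most alike of all pairs, so their shared place does not count as 2 separate results. The Nrf2 eye of P40 mouse 4 was the lowest and that of P40 mouse 2 the next lowest for all 8. In the former eye, *Cryba2* had 3 reads, which is at the floor of 3 counts, and *Crybb3* and *Cryba1* had 7 each. Together the 8 genes took 0.000239% of the reads of that library, against a median of 0.0773% and a highest share of 0.61% in the Nrf2 eye of P40 mouse 8. Over the 32 libraries, Spearman's rho of log2 CPM among the 28 pairs of these genes was between 0.89 and 0.99, and within groups of 7 or 9 libraries it was at least 0.93. The 32 libraries share the scaling and are pairs of eyes of the same mice. For *Cryab* with the 8 genes rho was between 0.29 and 0.45, for *Crygn* with the 8 between 0.24 and 0.45, and for *Cryab* with *Crygn* 0.6. Over the 28 libraries other than those of P20 mice 3 and 4, rho was 0.87 to 0.99 among the 8 genes. It was 0.22 to 0.39 for *Cryab* with them, 0.17 to 0.4 for *Crygn* with them, and 0.6 for *Cryab* with *Crygn*.

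Among 14274 other genes with a mean log2 CPM of at least 0, the 5 most like each lens crystallin over the 32 libraries were all crystallins. For *Cryaa* these were *Cryba1* (rho 0.98), *Cryba4* and *Crybb1* (0.97 each), *Crybb3*, and *Crygs* (0.96 each). *Crybb1* was most like *Crybb3* (0.99), *Cryge*, and *Cryba1* (0.98 each), followed by *Crygf* and *Cryga* (0.97 each). *Crybb2* was most like *Cryba2* (0.99) and *Crygs* (0.98). *Crygb* and *Crygc* of the γ-crystallin cluster, whose near-identical copies can share reads, were among the 5 for *Cryba1*, *Cryba2*, *Cryba4*, *Crybb2*, and *Crygs*, with rho between 0.96 and 0.99. No crystallin was among the 5 genes most like *Cryab*, which were *Irak1bp1* (0.89), *Npm1*, *Cyba*, *Gpx8* (0.86 each), and *B2m* (0.85). Those most like *Crygn* were *Pdss1* (0.76), *Fxyd1* (0.75), *Fyttd1* (0.74), *Pibf1*, and *Camta1* (0.73 each).

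Genes known from lens fibers varied with the 8 lens crystallins. The sum of 11 lens fiber markers was 21, 56.7, and 178 CPM (lowest, median, highest) in P20 control, 19.6, 74.9, and 173 CPM in P20 Nrf2, 22.4, 35.1, and 74.5 CPM in P40 control, and 15.2, 30.4, and 171 CPM in P40 Nrf2 eyes. Its highest 3 libraries were the same 3 that led for the crystallins, and without P20 mice 3 and 4 the highest sums at P20 were 110 CPM in control and 78.4 CPM in Nrf2 eyes. Among the defining markers, *Mip*, the water channel of lens fibers, ranged from 0.143 to 30.2 CPM with a rho of 0.89 with *Cryaa*, and *Bfsp1*, the beaded filament protein filensin, ranged from 0.517 to 49.2 CPM with a rho of 0.92. *Lim2*, a fiber membrane protein, had a rho of 0.74 (1.67 to 58.4 CPM), and the gap junction gene *Gja3* had 0.72. Without P20 mice 3 and 4, rho with *Cryaa* was 0.89 for *Mip* and *Bfsp1*, 0.66 for *Lim2*, and 0.65 for *Gja3*. *Gja3* was at 0 in 5 libraries and at most 9.28 CPM. *Bfsp2*, the partner of filensin, differed from it, with a rho of 0.17 with *Cryaa* and 0.76 with *Cryab*. Without P20 mice 3 and 4, these values of *Bfsp2* were 0.07 and 0.75. With *Cryab*, *Lim2* had a rho of 0.59 (0.57 without these mice) and another marker of the list had 0.62. The rest of the list had at most 0.37 with *Cryab*. Of the whole list, 5 markers were at 0 in at least 1 library. *Lenep* was at 0 in 24 libraries. The part of lens RNA in the spread of the crystallins was not tested.

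**Figure D2:**
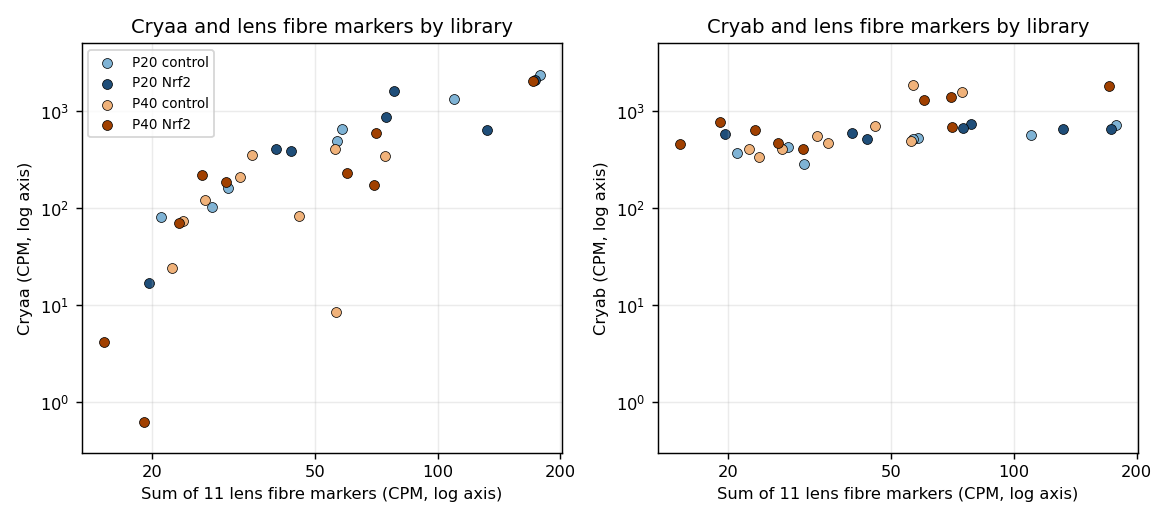
CPM of *Cryaa* (left) and *Cryab* (right) against the summed CPM of 11 lens fiber markers, 1 point per library, all axes logarithmic. *Cryaa* is highest in the 3 libraries with the highest marker sums, 171 to 178 CPM, whereas *Cryab* stays between 285 and 1860 CPM at all marker sums.

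The libraries highest for *Cryab* were others. Its 5 highest libraries were the control eyes of P40 mice 3 and 5 (1860 and 1590 CPM) and the Nrf2 eyes of P40 mice 8, 3, and 6 (1830, 1400, and 1300 CPM). The same 5 libraries were the highest 5 for *Crygn*, for *Ttr*, which encodes the transthyretin made by the RPE, for *Hspb2*, whose exons overlap those of *Cryab*, and for *Bfsp2*. *Ttr* stood apart from the rest of the RPE list. Its rho with *Cryab* was 0.55, whereas those of the other RPE markers lay between −0.3 and 0.22. The control eye of P40 mouse 3 had the highest *Cryab* of all and the third lowest *Cryaa*, at 8.39 CPM. *Hsf1*, the main heat shock factor, had a rho of −0.8 with *Cryab* over the 32 libraries, with levels from 15.4 to 55 CPM. Among other small heat shock proteins, *Hspb1* ranged from 29.7 to 1730 CPM and had a rho of −0.07 with *Cryab* and 0.37 with *Cryaa*, and *Hspb8* had 0.38 and −0.17.

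To ask whether Nrf2 changed crystallin expression, the 2 eyes of each mouse were compared. No crystallin passed the test at P20, where 3.41% of 16303 genes were called at an adjusted *P* value under 0.05 (edgeR's quasi-likelihood test with mouse as a block). None of the 10 had an unadjusted *P* value under 0.05, and neither DESeq2 nor limma voom called any. The direction depended on the mouse and was shared by the 8 lens crystallins. At P20, all 8 were higher in the Nrf2 eye of 3 mice and all 8 were lower in it in the other 4. *Cryaa* was at 80.2 CPM in the control eye and 1630 CPM in the Nrf2 eye of mouse 2, at 103 and 2100 CPM in mouse 4, and at 493 and 16.9 CPM in mouse 7. On the log2 scale the Nrf2 eyes differed by 4.35, 4.35, and −4.86, and the median over the 7 mice was −0.74, as it was over the 5 mice other than 3 and 4. In 2 of these 5 mice all 8 genes were higher in the Nrf2 eye and in 3 all were lower. The fitted change of *Cryaa* was 0.14 ± 1.45 (log2 fold change ± SE, adjusted *P* = 0.972), and those of the other 7 lay between 0.05 and 0.2 with SEs of 1.13 to 1.35. Without mice 3 and 4, all 8 took the opposite sign, between −0.39 and −0.03, with adjusted *P* values of at least 0.922. *Cryab* was higher in the Nrf2 eye of 5 of 7 mice, by at most 1.25 on the log2 scale, and its fitted change of 0.38 ± 0.20 did not pass the test (adjusted *P* = 0.358, and 0.43 and 0.381 without mice 3 and 4). For *Crygn* the change was −0.05 ± 0.34 (adjusted *P* = 0.958). The median change was 0.12 over the 10 genes and −0.04 over all genes tested.

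**Figure D3:**
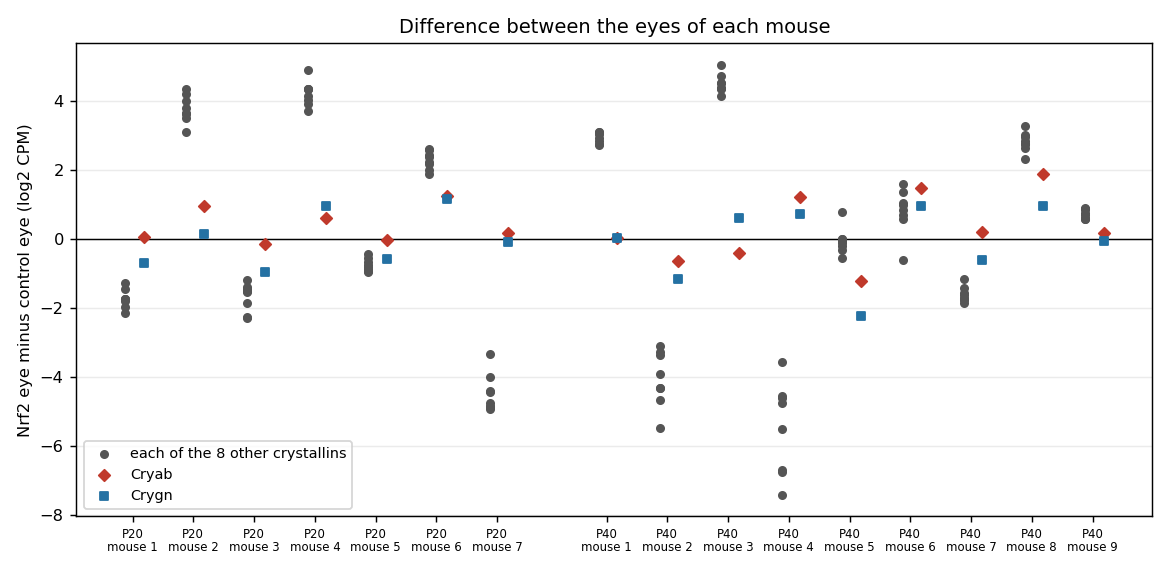
Difference between the Nrf2 eye and the control eye of each mouse in log2 CPM, 7 mice at P20 and 9 at P40, with 1 gray point for each of the 8 lens crystallins, a diamond for *Cryab*, and a square for *Crygn*. The 8 gray points of a mouse lie together, up to 5.05 above 0 in P40 mouse 3 and down to −7.4 in P40 mouse 4.

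The same pattern held at P40. No crystallin was called among 16686 genes, of which 4.57% were, none had an unadjusted *P* value under 0.05, and DESeq2 and limma voom called none. All 8 lens crystallins were higher in the Nrf2 eye of 4 mice and lower in it in 3, while mice 5 and 6 were mixed, with 3 and 7 of the 8 genes higher. The extremes were mouse 3, in which *Cryaa* was at 8.39 CPM in the control eye and 174 CPM in the Nrf2 eye, and mouse 4, in which it was at 73.8 and 0.627 CPM. *Crybb2* differed by −7.4 on the log2 scale in mouse 4 and by 4.72 in mouse 3, values that the added prior count of 2 reads pulls toward 0 where counts are low. The fitted change was 0.14 ± 1.12 for *Cryaa* (adjusted *P* = 0.985), 0.5 ± 0.99 for *Crybb1* (0.927), and 0.35 ± 1.20 for *Crybb2* (0.964). Over the 8 genes it lay between 0.14 and 0.5, and without mouse as a block between 1.09 and 1.55, with none called. *Cryab* was higher in the Nrf2 eye of 6 of 9 mice, from −1.22 in mouse 5 to 1.88 in mouse 8, with a fitted change of 0.25 ± 0.33 (adjusted *P* = 0.868). *Crygn* was higher in 5 of 9 mice with −0.1 ± 0.35 (adjusted *P* = 0.965). The median was 0.3 over the 10 genes and −0.03 over all genes. Tested for a difference between the ages, the effect of Nrf2 was called for none of the 10 genes by edgeR, DESeq2, or limma voom, with no unadjusted *P* value under 0.05, and 0.00557% of 17959 genes were called in that comparison. SEs of this difference were 1.51 to 1.96 for 7 of the 8 lens crystallins, 0.41 for *Cryab*, and 0.49 for *Crygn*.

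Related genes were given the same test. Over all genes, 477 were called higher and 79 lower in Nrf2 eyes of 16303 tested at P20. At P40, 556 were called higher and 206 lower of 16686. Of 5 other small heat shock protein genes tested, *Hspb8*, a chaperone that acts in selective autophagy, rose in Nrf2 eyes at P40 (0.82 ± 0.19, adjusted *P* = 0.0288), and none was called at P20. Of 9 tested regulators of crystallins, among them *Pax6*, *Maf*, *Prox1*, and *Hsf1*, none was called at either age, and *Mafa*, *Sox1*, *Pitx3*, and *Foxe3* were too low to test in each comparison of the eyes. No lens fiber marker was called of 10 tested at P20 and 9 at P40, and none of 13 other crystallin-named genes was. Of the markers of the RPE, 5 of 11 fell with Nrf2 at P40, including *Rpe65* (−2.82 ± 0.32, adjusted *P* = 0.000281), the 1 of 11 that was called at P20 (−2.17 ± 0.37, adjusted *P* = 0.0198). Of 8 rod markers, *Gngt1* (−4.18 ± 0.93, adjusted *P* = 0.0216) and *Sag* (−4.95 ± 0.60, 0.000459) fell at P40 and none was called at P20. All 8 cone markers fell at P40, with *Opn1sw*, the S-opsin, at −5.97 ± 0.91 (adjusted *P* = 0.0022), and all 8 had been negative at P20, where *Opn1sw* (−5.12, adjusted *P* = 0.0461) and *Gnat2* (−1.69, 0.0297) were called. Without mice 3 and 4, *Rpe65* (−2.59, adjusted *P* = 0.0169) and *Gnat2* (−1.84, 0.0157) were called at P20 and *Opn1sw* (−5.19, 0.108) was not. Their part in the crystallin values was not tested.

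Crystallins were next compared between the ages. In control eyes, *Crybb1*, whose product joins the β-crystallin oligomers, fell from P20 to P40. It ranged over 16.1, 100, and 545 CPM at P20 and over 2.03, 12.2, and 75 CPM at P40, so that the groups overlapped. The fitted change was −2.71 ± 0.78 with an adjusted *P* value of 0.0353. It was the 1 gene called of the 10, in a comparison that called 14.8% of 16832 genes, 6.42% as lower at P40, so that 1 of 10 crystallins stood beside a background of the same order. The call was lost without P20 mice 3 and 4 (−2.16, adjusted *P* = 0.0992), where 0.916% of 17254 genes were called. It was also lost without the control eye of P20 mouse 1 (−2.60, 0.0683), 3 (−1.94, 0.0898), 5 (−2.75, 0.0627), or 7 (−2.78, 0.0555) or of P40 mouse 2 (−2.62, 0.0568) or 3 (−2.59, 0.0546). *Cryaa* changed by −1.99 ± 0.76 (adjusted *P* = 0.0781), *Crybb3* by −2.14 ± 0.76 (0.0615), and *Cryba1* by −1.80 ± 0.77 (0.108), none of which passed the test. *Crybb2* had a change of −0.75 ± 0.76 and *Cryba2* of −0.84 ± 0.80, with adjusted *P* values of 0.495 and 0.467. *Cryab* and *Crygn* had positive values, 0.7 ± 0.38 (adjusted *P* = 0.196) and 1.06 ± 0.44 (0.0966). All 8 lens crystallins had a negative change, as had 8416 of the 16832 genes, with a median of −1.67 against 0 over all genes tested. The 8 vary together between eyes, so their shared sign does not count as 8 separate results. DESeq2, which called 26% of the 16832 genes, also called *Cryaa* (−1.97, adjusted *P* = 0.0262), *Crybb3* (−2.10, 0.0171), and *Crygn* (1.09, 0.0458).

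In Nrf2 eyes, no crystallin was called with age by edgeR, where 0.502% of 16745 genes were. One of the 10 had an unadjusted *P* value under 0.05, *Crygn* (1.3 ± 0.55, adjusted *P* = 0.153). DESeq2 called none, beside 10.9% of all genes, and limma voom called *Crybb1*, beside 13.2% of all genes. *Crybb1* ranged over 6.22, 111, and 547 CPM at P20 and 0.314, 22.9, and 376 CPM at P40, with a change of −1.39 ± 1.00 (adjusted *P* = 0.385), and *Cryaa* had −1.08 ± 1.04 (0.529). The Nrf2 eye of P40 mouse 8 held the highest value of each lens crystallin at P40. Without mouse 8, the change of *Crybb1* was −2.64 and that of *Cryaa* −2.18, and neither was called. Without P20 mice 3 and 4, these changes were −0.87 (adjusted *P* = 0.676) and −0.69 (0.761), and that of *Crygn* was 1.51 (0.245).

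**Figure D4:**
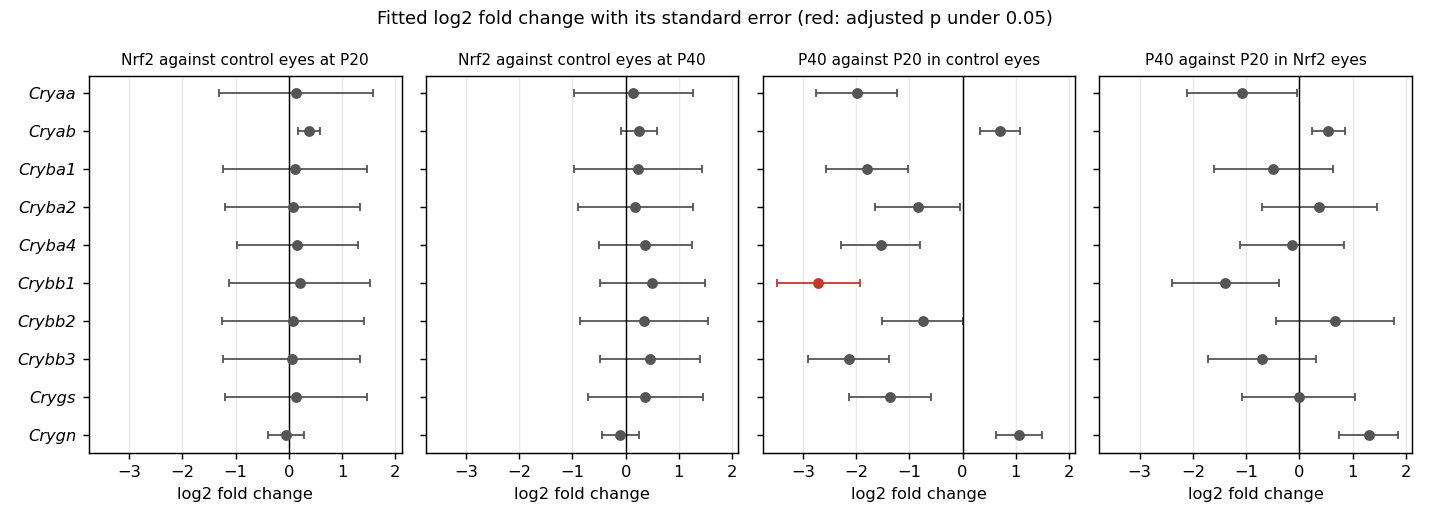
Log2 fold change (x axis) of each crystallin gene in 4 comparisons, points with bars of 1 SE, from edgeR's quasi-likelihood test, with the 1 gene past an adjusted p of 0.05 in red. The bars of the lens crystallins are wide around 0 for Nrf2, and the 8 lie below 0 with age in control eyes, *Crybb1* lowest at −2.71.

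Other genes of the lens and other crystallin-named genes were compared between the ages, beside 14.8% of all genes called in control eyes, 6.42% as lower at P40, and 0.502% in Nrf2 eyes. Of 13 other crystallin-named genes tested in control eyes, 3 fell and *Cryzl1*, which encodes a quinone oxidoreductase-like protein, rose (0.57 ± 0.14, adjusted *P* = 0.0254), and the median was −0.74. Those that fell were of the γ-crystallin cluster. Of the 6 γ-crystallins of the cluster, 3 fell in control eyes from P20 to P40, *Cryga* (−4.51 ± 0.87, adjusted *P* = 0.011), *Crygf* (−2.91 ± 0.81, 0.0328), and *Cryge* (−2.59 ± 0.78, 0.0387), and all 6 had negative values with a median of −2.29. Since their sequences are near identical, the split of reads among them is uncertain. Of 9 lens fiber markers tested, *Bfsp1* fell (−1.85 ± 0.57, adjusted *P* = 0.041), and the list had a median of −0.85. Without P20 mice 3 and 4, *Cryga* remained called (−3.90, adjusted *P* = 0.0304), whereas *Cryge* (−2.16, 0.103), *Crygf* (−2.38, 0.0962), *Bfsp1* (−1.61, 0.102), and *Cryzl1* (0.60, 0.0788) did not. Their part in the lower level of *Crybb1* was not tested. *Hsf4*, the heat shock factor of the lens, fell by 1.16 in control eyes (SE 0.31, adjusted *P* = 0.0306) and by 1.44 in Nrf2 eyes (SE 0.30, 0.0428), the 1 called of 9 regulators tested. *Hspb6* rose in control eyes (0.97 ± 0.23, adjusted *P* = 0.0218), the 1 called of 5 other small heat shock protein genes. Without P20 mice 3 and 4, neither was called, with changes of −0.99 (adjusted *P* = 0.109) in control and −1.53 (0.116) in Nrf2 eyes for *Hsf4* and of 1.13 (0.0535) in control eyes for *Hspb6*.

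The proportions of the lens crystallins among themselves differed between the ages, a comparison made after the values were seen and given without a test. In the lens, β-crystallin genes are not used equally over life, and *Crybb2* transcripts become more abundant after birth. In control eyes, *Crybb2* (chr5:113058258-113070117, 9 merged exons) made up 12.5% to 17.9% of the reads of the 8 genes at P20 and 23.3% to 29.7% at P40, with no overlap. *Crybb1* (chr5:112255815-112269585, 6 merged exons) made up 6.73% to 10.3% at P20 and 3.22% to 6.56% at P40, also without overlap. In Nrf2 eyes the shares overlapped, with 12.2% to 15.6% at P20 and 8.89% to 32.3% at P40 for *Crybb2* and 6.72% to 13.1% and 4.13% to 12.2% for *Crybb1*, where the Nrf2 eye of P40 mouse 4, with 90 reads of the 8 genes, gave both 8.89% and 12.2%. In control eyes, the share of *Cryaa* was 37.5% to 43.3% at P20 and 23.4% to 42.7% at P40, and that of *Crygs* 8.11% to 10.8% and 8.22% to 13.8%. Both overlapped, as did the shares of *Cryba1*, *Cryba2*, *Cryba4*, and *Crybb3* in control eyes. *Crybb1* and *Crybb2* were thus the only genes of the 8 without overlap there, and their rho of 0.89 was the lowest of the 28 pairs. How often other genes or pairs of genes separate the ages in this way was not counted. The ratio of *Crybb2* to *Crybb1* reads, taken within each library, was 1.24, 1.79, and 2.63 (lowest, median, highest) in P20 control and 1.07, 1.46, and 2.31 in P20 Nrf2 eyes. At P40, it was 3.96, 6.22, and 8.43 in control and 0.727, 5.52, and 6.43 in Nrf2 eyes. The ratio exceeded the highest P20 value in 16 of 18 libraries at P40. The other 2 were the Nrf2 eyes of P40 mouse 4, at 0.727 with 8 reads of *Crybb2* and 11 of *Crybb1*, and of P40 mouse 2, at 2.55 with 107 and 42 reads. Control and Nrf2 eyes of one age overlapped. The highest P20 value was that of the control eye of mouse 1, so it stands without mice 3 and 4 as well.

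**Figure D5:**
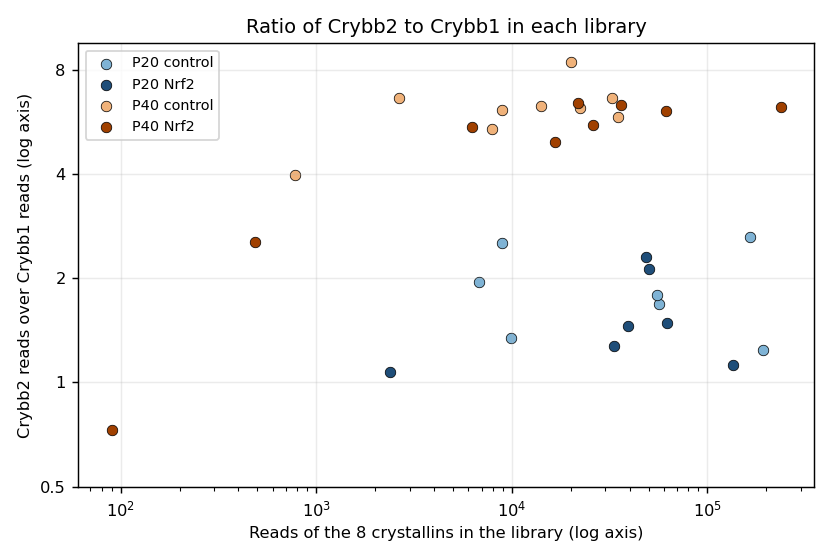
Ratio of *Crybb2* to *Crybb1* reads (log axis) against the reads of the 8 lens crystallins in each library (log axis), colored by group. The 14 libraries at P20 lie between 1.07 and 2.63 and 16 of 18 at P40 lie between 3.96 and 8.43. The 2 below are Nrf2 eyes at P40 with few crystallin reads.

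Several of the β-crystallin genes are neighbors. *Cryba4* and *Crybb1* lie 3296 bases apart on chromosome 5 in opposite orientation, and *Crybb3* and *Crybb2* lie 5721 bases apart. In control eyes, the change with age was −1.54 ± 0.74 for *Cryba4* beside −2.71 ± 0.78 for *Crybb1*, and −2.14 ± 0.76 for *Crybb3* beside −0.75 ± 0.76 for *Crybb2*. These differences between neighbors were not tested. In the stretches shown above, *Cryba1* and *Crybb1* share the overlapping Maf and response element letters and the TATA box, and their changes with Nrf2 were 0.12 ± 1.35 and 0.20 ± 1.33 at P20 and 0.23 ± 1.21 and 0.50 ± 0.99 at P40. *Crybb2*, without these motifs, had 0.08 ± 1.34 and 0.35 ± 1.20. At P20 without mice 3 and 4, the values of *Cryba1*, *Crybb1*, and *Crybb2* were −0.29, −0.03, and −0.37. None of these passed the test.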

How the data were processed

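RNA from the RPE of both eyes of 16 mice labelled *rd1* was amplified and sequenced. Per the methods, the authors aligned reads to mm10 with STAR, counted them with featureCounts, and in parallel estimated isoforms with Salmon (0.9.1 per the labels). Deposited were estimated counts for each gene, which the authors had rounded and left unnormalized, and which tool gave them is not given in the sources used here. Counts were analyzed in R 4.3.3 with edgeR 4.0.16, beside DESeq2 1.42.0 and limma 3.58.1. After filterByExpr and TMM scaling, edgeR's quasi-likelihood test was run on all genes kept, with mouse as a block for Nrf2 and without a block between the ages. Benjamini-Hochberg adjustment covered every gene tested in a comparison (threshold 0.05). Log2 CPM used a prior count of 2. The labels and methods pair the eyes of a mouse, whose deviations over all genes correlated by 0.0213 (P20) and 0.099 (P40) on average. The crystallins, the other lists, and the tests were chosen with earlier results of these data known. Named genes were all 10 crystallins, the 5 most like each, the called genes of each list (at most 4), and the defining lens fiber markers, 1 of which is not reported here. Gene positions came from GENCODE (GRCm38) and promoters from RefSeq. Scripts were tested on simulated data. The number of crystallins and of all genes called and the fold changes of crystallins were recomputed with DESeq2, with limma voom (quality weights), with RLE scaling, unfiltered, unblocked, without P20 mice 3 and 4, and without single mice. The spread, correlations, and marker sums without mice 3 and 4 were added after seeing the data.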

Additional observations from a re-analysis of the deposited data

Results flagged for a closer look

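In P20 Nrf2 eyes, the library of mouse 7 lay far below the other 6 for 7 of the 8 lens crystallins. It was the lowest for *Cryba4* too (2.91 CPM, next lowest library 23.8), where the gap was under the limit set by the range of the group. Its level was 16.9 CPM for *Cryaa* (next lowest library 389), 7.08 for *Cryba1* (152), 1.5 for *Cryba2* (23), 6.22 for *Crybb1* (92.5), 6.66 for *Crybb2* (123), 2.65 for *Crybb3* (50.8), and 3.59 for *Crygs* (81.7). Chance flags about 1 in 20 of such groups. The genes vary together, so these 7 of 40 groups tested are not independent. The cause was not tested.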

How the results depend on the processing

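No crystallin was called with Nrf2 (0 at P20, 0 at P40, 0 for the difference between the ages) in any of the alternatives run, the fits without the replicate block (0 in each) and without 1 mouse (0 to 0) included. The block changed no call of a crystallin. With age in control eyes, 1 was called in the main test, 4 by DESeq2, 0 without P20 mice 3 and 4, and 0 to 2 without 1 eye, where *Crybb1* ranged from −3.25 to −1.94 and *Crybb3*, called once (without P40 mouse 8), from −2.62 to −1.41. DESeq2 called 26% of all genes in that comparison. With age in Nrf2 eyes, limma voom called 1, *Crybb1* at −3.37, beside 13.2% of all genes, and 0 to 0 were called without 1 eye. The cause of these changes was not tested. The median SD of the 10 genes over all libraries was 2.48 with TMM and with RLE and 2.46 without P20 mice 3 and 4.

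The sign of the Nrf2 effect on the lens crystallins was not stable at P20, and at P40 it changed for some of them, only without 1 mouse. At P20, limma voom gave −1.20 for *Cryaa*, −1.09 for *Cryba1*, −1.06 for *Cryba2*, −0.99 for *Cryba4*, −0.96 for *Crybb1*, −1.08 for *Crybb2*, −1.10 for *Crybb3*, and −0.94 for *Crygs*. Without P20 mice 3 and 4 the values were −0.21 for *Cryaa*, −0.29 for *Cryba1*, −0.37 for *Cryba2*, −0.20 for *Cryba4*, −0.03 for *Crybb1*, −0.37 for *Crybb2*, −0.19 for *Crybb3*, and −0.39 for *Crygs*. Without 1 mouse at a time, the lowest values came without mouse 4 and the highest without mouse 7, from −0.68 to 1.03 for *Cryaa*, −0.65 to 0.96 for *Cryba1*, −0.67 to 0.86 for *Cryba2*, −0.53 to 0.86 for *Cryba4*, −0.58 to 1.00 for *Crybb1*, −0.68 to 0.92 for *Crybb2*, −0.71 to 0.83 for *Crybb3*, and −0.63 to 0.96 for *Crygs*, whereas *Crygn* ranged from −0.24 to 0.13. At P40 the ranges were −0.35 to 0.70 for *Cryaa*, −0.30 to 0.81 for *Cryba1*, −0.33 to 0.73 for *Cryba2*, and −0.07 to 0.83 for *Cryba4*. Those of *Crybb2* were −0.17 to 0.92, of *Crygs* −0.14 to 0.92, and of *Crygn* −0.24 to 0.15. The ranges of *Crybb1* (0.04 to 1.03) and *Crybb3* (0.02 to 0.97) stayed above 0. Without the replicate block at P40, *Crygn* was 0.15 and the 8 lens crystallins were between 1.09 and 1.55, against 0.14 to 0.50 with it. All 8 were also positive at P40 with DESeq2, limma voom, RLE scaling, and no filter. 

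Over all genes, the calls with Nrf2 numbered 556 at P20 in the main test and 348 (no filter) to 2605 (limma voom) in the alternatives, 1093 without the replicate block, and at P40 762 and 716 to 1380. With age they numbered 2483 and 158 (without P20 mice 3 and 4) to 4383 (DESeq2) in control eyes, and 84 and 20 to 2213 in Nrf2 eyes. For the difference between the ages they numbered 1, and 12 with DESeq2.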
